A study of Mus musculus with 6 samples.

Results

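A set of 10 genes of ADP-ribose transfer was followed in mouse libraries labelled as heart tissue, from a diet-induced model of heart failure with and without L-proline. They were the ADP-ribosyltransferase genes Parp1, Parp2, Parp3, Parp8, Parp9, Parp10, Parp11, Parp12 and Parp14, and Dtx3l, whose protein is the partner of Parp9. The set was a fixed list of symbols matched on the gene column of the deposited table, and 10 of its 10 symbols were found among 14408 listed genes. It was read in classes by known function, and its genes were chosen with earlier results of these data known. Parp9, Dtx3l, Parp10, Parp11, Parp12 and Parp14 form the 6 interferon-linked genes, Parp1, Parp2 and Parp3 the 3 DNA-repair genes, and Parp8, whose role is less clear, stands in neither class.

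RNA sequencing covered 6 libraries labelled as heart tissue (left ventricle) of C57BL/6J mice, all male and aged 8 weeks when the model began. For 8 to 12 weeks both groups were kept on a high-fat diet and drank water with 0.5 g/L of L-NAME, which blocks nitric oxide synthases, to induce HFpEF (heart failure with preserved ejection fraction). Afterwards 3 libraries came from mice injected intraperitoneally each day with L-proline at 300 mg/kg for 4 to 8 weeks, and 3 from mice given PBS, the vehicle. No group without the HFpEF model is among these libraries. The labels do not say that each library is a separate animal, so the p-values below measure the spread between libraries, which may be technical.

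ADP-ribosyltransferases split NAD+ and attach its ADP-ribose to proteins or nucleic acids. Parp1 and Parp2 build chains of it at DNA breaks and, with Parp3, recruit repair enzymes, and strong Parp1 activation is known to drain NAD+ from injured heart muscle. The enzymes of the interferon-linked class attach single ADP-ribose units or, like Parp9, act through a partner. Their genes are induced by interferons through STAT and IRF transcription factors, and several of their proteins restrict viruses.

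Promoter windows show how different the starts of these genes are. RefSeq windows on mouse build GRCm38.p6, from 250 bases before to 50 bases after a gene start, were on hand for 7 of the 10 genes (8 windows, since Parp11 has 2 starts), while the submitters' processing notes name GRCm39 for the expression data. Of these, 4 are printed: Parp11 because it holds the interferon-type letters, Dtx3l as the partner gene of Parp9 with an IRF site, Parp12 as a gene of the same class without these letters, and Parp1 for the repair class. They lie at chr6:127446590-127446889 (plus strand), chr16:35938978-35939277 (minus strand), chr6:39118300-39118599 (minus strand) and chr1:180568641-180568940 (plus strand). Capitals mark, in the interferon-linked genes, matches on either strand to GAAA, any 2 bases, GAAA (the core of the interferon-stimulated response element, ISRE), to AANNGAAA (a single IRF site, contained in every ISRE core) and to TTCNNNGAA (the STAT site GAS), and in Parp1 matches to GGGCGG (the GC box).
Parp11: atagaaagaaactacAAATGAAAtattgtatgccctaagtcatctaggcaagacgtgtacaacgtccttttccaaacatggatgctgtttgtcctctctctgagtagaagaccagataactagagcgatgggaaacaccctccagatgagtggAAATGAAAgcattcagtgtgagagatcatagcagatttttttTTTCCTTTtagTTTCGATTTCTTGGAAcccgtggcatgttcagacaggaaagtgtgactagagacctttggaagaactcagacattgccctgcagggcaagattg
Dtx3l: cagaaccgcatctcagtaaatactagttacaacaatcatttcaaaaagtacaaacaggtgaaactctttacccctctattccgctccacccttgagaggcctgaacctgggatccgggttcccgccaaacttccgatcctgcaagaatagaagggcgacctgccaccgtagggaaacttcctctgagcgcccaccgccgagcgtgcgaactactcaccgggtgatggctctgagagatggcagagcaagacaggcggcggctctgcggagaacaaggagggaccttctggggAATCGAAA
Parp12: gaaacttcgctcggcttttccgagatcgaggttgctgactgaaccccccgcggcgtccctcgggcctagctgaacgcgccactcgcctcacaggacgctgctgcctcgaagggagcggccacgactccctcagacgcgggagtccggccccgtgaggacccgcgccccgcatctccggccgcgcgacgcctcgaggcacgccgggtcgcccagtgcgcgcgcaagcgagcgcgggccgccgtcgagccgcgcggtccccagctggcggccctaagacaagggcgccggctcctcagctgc
Parp1: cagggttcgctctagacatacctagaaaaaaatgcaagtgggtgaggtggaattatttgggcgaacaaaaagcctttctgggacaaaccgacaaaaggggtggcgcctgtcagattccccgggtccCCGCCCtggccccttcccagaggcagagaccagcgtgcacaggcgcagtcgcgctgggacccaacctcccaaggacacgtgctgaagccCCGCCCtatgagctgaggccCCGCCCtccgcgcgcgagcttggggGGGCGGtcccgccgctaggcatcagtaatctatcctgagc
The upstream Parp11 window held 1 ISRE core, read as TTTCGATTTC on the printed strand and beginning 44 bases before the start, and a GAS match, TTCTTGGAA, that overlaps it and begins 37 bases before the start. Which Parp11 start was used in these libraries was not tested. Over 32851 RefSeq windows of the same length, 3.44% held an ISRE core, 8.30% a GAS match, 23.9% an IRF site and 35.7% a GC box. The Dtx3l window held 1 IRF site, which begins 42 bases after the start, at the end of the window. The Parp12 window held none of the 3 interferon-type motifs, which says only that those letters are not in these 300 bases. In the Parp1 window there were 4 GC boxes, and of the 3 repair-class windows 2 held a GC box and 0 an ISRE core. Parp2, of the repair class, also held 1 IRF site (TTTCGTTT), and the other Parp11 window held none of the 3 interferon-type motifs, so these letters do not separate the classes. Parp12 had the highest GC content of the 8 windows at 73.7% with 46 CpG pairs, and the upstream Parp11 window the lowest at 42.0% with 5, against medians of 52.7% and 7 over all windows.

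Before the results, the labelled tissue was checked against marker genes. Of 12 heart muscle markers 5 were listed and 1, Tnnt2, reached a mean of 1 FPKM (a fragment count scaled to gene length and library size). The heart muscle markers summed to 31.6 to 33.0 FPKM in the PBS libraries and to 13.8 to 16.4 in the L-proline libraries. That sum is carried by Tnnt2 alone, with means of 32.0 FPKM in PBS and 14.5 in L-proline. Of 7 fibroblast markers 6 were listed, and they summed to 2025 to 2074 in PBS and to 2756 to 3124 in L-proline. Myh6, Myl3, Actc1, Pln, Mybpc3, Actn2 and Nppa were not among the genes analysed here, so defining markers of the labelled tissue were largely absent. Of 6 endothelial markers 0 reached a mean of 1 FPKM, and their sum was 0.197 to 0.348 over the 6 libraries. The 7 smooth muscle and pericyte markers summed to 944 to 1059 FPKM in PBS and to 852 to 1050 in L-proline. Most of that sum is Acta2, with means of 850 FPKM in PBS and 826 in L-proline, while Myh11 and Rgs5 stayed under a mean of 1 FPKM. Library totals recovered from the values ran from 34990473 to 37498030 fragments. Across all genes 2056 of 10500 passed the test, and the 3 PBS libraries lay apart from the 3 L-proline libraries on the first principal component, which held 61.9% of the variance.

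All 6 interferon-linked genes rose with L-proline and none of the 3 repair genes passed the test. Parp10 rose most, from 18.7 ± 1.93 to 46.3 ± 3.90 FPKM (SD, n = 3 in each group), and Parp9 and Parp11 rose least. Which of these was smaller depended on the setting: Parp11 had the smaller log2 difference with 1 FPKM added (0.56 against 0.59) and Parp9 the smaller ratio of means (1.58 against 1.65). Differences were tested with limma on log2(FPKM + 1) over all 10500 genes with a mean of at least 1 FPKM, with p-values adjusted over all of them (Benjamini-Hochberg) and called under 0.05, and all 10 genes of the set passed that filter. Among all tested genes 19.6% were called, 7.50% higher and 12.1% lower in L-proline. The groups did not overlap, with L-proline higher, for 6 of 6 interferon-linked genes, against 16.0% of all tested genes, and 40.1% did not overlap in either direction. Their median log2 fold change was 0.79, that of the repair genes -0.05 and that of all tested genes -0.06. The genes were chosen with earlier results of these data known, so these shares and medians describe the set and are no independent support. RefSeq places Parp9, Dtx3l and Parp14 on chromosome 16, Parp10 on 15, Parp11 and Parp12 on 6, Parp1 on 1, Parp2 on 14, Parp3 on 9 and Parp8 on 13. In bulk RNA a change in the number of cells of a type and a change in RNA per cell cannot be told apart.

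**Figure D1:**
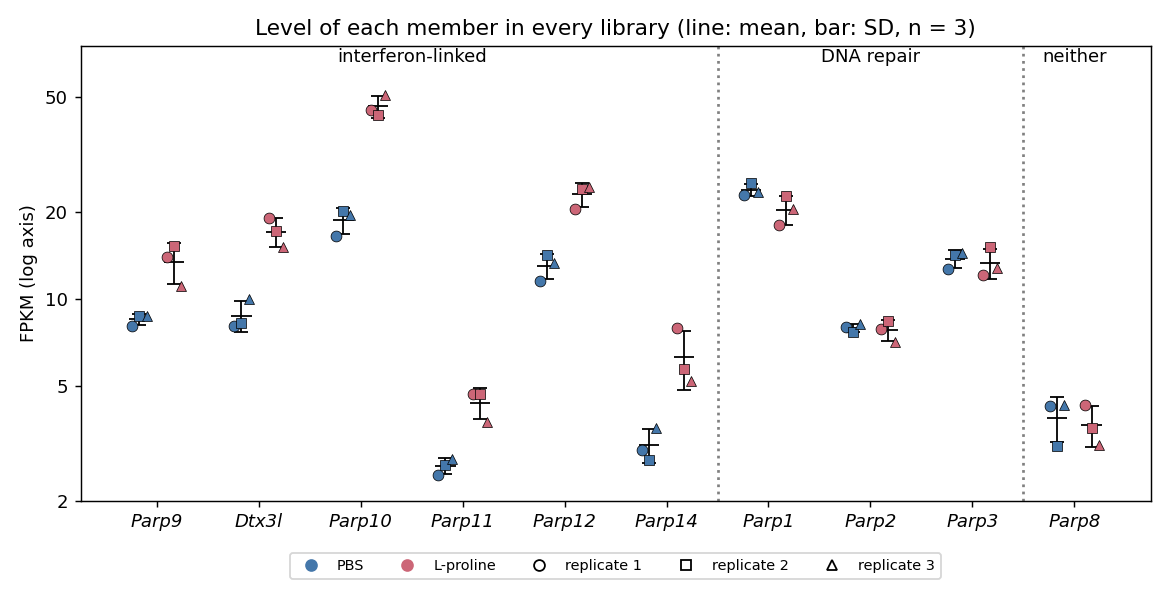
Level of the 10 genes in each library, in FPKM on a log axis, with PBS in blue and L-proline in red, 1 symbol per replicate number, the mean as a line and the SD as a bar (n = 3). For the 6 interferon-linked genes every L-proline point lies above every PBS point, while Parp2, Parp3 and Parp8 overlap between groups.

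Parp9 and Dtx3l encode the partners of a complex in which the ubiquitin ligase Dtx3l gives Parp9 its activity and which promotes interferon-stimulated transcription. Parp9 stood at 8.04, 8.70 and 8.75 FPKM in PBS 1, 2 and 3 and at 14.0, 15.2 and 11.1 in L-proline 1, 2 and 3. The lowest L-proline value, in library 3, was still above all PBS values, and the log2 fold change was 0.59 ± 0.12 (standard error; limma, adjusted p = 0.0106). Dtx3l stood at 8.04, 8.22 and 9.94 FPKM in PBS 1, 2 and 3 and at 19.0, 17.1 and 15.1 in L-proline 1, 2 and 3, a log2 difference of 0.89 ± 0.11 (limma, adjusted p = 0.00175). In PBS the partners were close to equal per length, with 1.00, 0.945 and 1.14 units of Dtx3l per unit of Parp9 in libraries 1, 2 and 3. With L-proline this ratio was 1.36, 1.13 and 1.36. It averaged 1.03 ± 0.0986 in PBS and 1.28 ± 0.136 in L-proline (SD, n = 3 each), the groups overlapped and a two-sided exact permutation test gave p = 0.2. With 3 libraries against 3 that test cannot give less than 0.1, so it cannot decide whether the ratio changed. Near-equality in PBS also rests on the gene lengths behind the values, recovered as 3466 bases for Parp9 and 5181 for Dtx3l. GENCODE M21 exons cover 4872 bases of Parp9 and 5725 of Dtx3l. Exons of the pair share 458 bases on opposite strands in GENCODE M21, 9.40% of the Parp9 and 8.00% of the Dtx3l exon length, and the labels name a kit without stating that strand was kept, so fragments from that stretch cannot be told apart.

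Parp14, a macrodomain enzyme that takes part in interferon responses and in STAT6 signalling, is the next protein-coding gene to Dtx3l on chromosome 16. It stood at 3.00, 2.77 and 3.58 FPKM in PBS 1, 2 and 3 and at 7.94, 5.70 and 5.21 in L-proline 1, 2 and 3. The L-proline values were all higher, and they were also the most spread of the 10 genes, with library 1 above the other 2 and an SD of 23.2% of the mean. On the log2 scale the difference was 0.81 ± 0.15 (limma, adjusted p = 0.00824), and without L-proline 1 it was 0.65 (limma, adjusted p = 0.00640). On either side of the 3 neighbours, Kpna1, which follows Parp9, was 7.76 ± 1.06 and 7.13 ± 1.74 FPKM (limma, adjusted p = 0.624), and Hspbap1, which precedes Parp14, lay under the filter. These flanking genes were chosen after the values were seen. Of all 16 coding neighbours of the 10 genes, 10 were tested, 2 rose (Ccnd2 beside Parp11 and Ccnb1ip1 beside Parp2) and 0 fell, beside 7.50% higher and 12.1% lower among all tested genes.

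Parp10, a mono-ADP-ribosyltransferase first found as a partner of Myc, had the largest change of the set. Its levels were 16.5, 20.2 and 19.5 FPKM in PBS 1, 2 and 3 and 45.1, 43.1 and 50.6 in L-proline 1, 2 and 3. Every L-proline value lay far above every PBS value. On the log2 scale the difference was 1.26 ± 0.10 (limma, adjusted p = 0.000315), the 48th highest of 10500 genes. Backed by 2106 to 6322 fragments per library, Parp10 was the most deeply covered of the 6. Its exons share 205 bases, 4.80% of their length, with Plec, whose own level was 64.2 ± 4.79 and 65.4 ± 4.49 FPKM.

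Parp12 carries zinc fingers of the kind that bind RNA and moves to stress granules in stressed cells. It was measured at 11.5, 14.1 and 13.3 FPKM in PBS 1, 2 and 3 and at 20.5, 24.1 and 24.3 in L-proline 1, 2 and 3, with no overlap and a log2 difference of 0.78 ± 0.10 (limma, adjusted p = 0.00215). Parp11, which acts on the turnover of the type I interferon receptor, was the lowest of the 10 genes in PBS. It gave 2.46, 2.66 and 2.80 FPKM in PBS 1, 2 and 3, and 4.69, 4.66 and 3.75 in L-proline 1, 2 and 3. That difference, 0.56 ± 0.10 on the log2 scale (limma, adjusted p = 0.00824), rested on 526 to 980 fragments per library. Because 1 FPKM was added before taking logs, changes of such low genes are understated. The ratio of group means was 1.65 for Parp11 and 2.02 for Parp14, where the log2 fold changes correspond to 1.47 and 1.75.

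The 6 increases differed in how they ran across the L-proline libraries. L-proline 3 was the lowest of the 3 for Parp9, Dtx3l, Parp11 and Parp14 and the highest for Parp10 and Parp12. Over the 6 libraries, Pearson's r of log2(FPKM + 1) was 0.99 between Parp9 and Parp11, 0.98 between Parp10 and Parp12 and between Dtx3l and Parp14, and 0.95 between Parp9 and Dtx3l. It was lower between Parp9 and Parp10, at 0.87, and lowest within the class between Parp12 and Parp14, at 0.81. These are descriptions over 6 points that share 2 groups, so any gene that differs between the groups correlates with these.

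**Figure D2:**
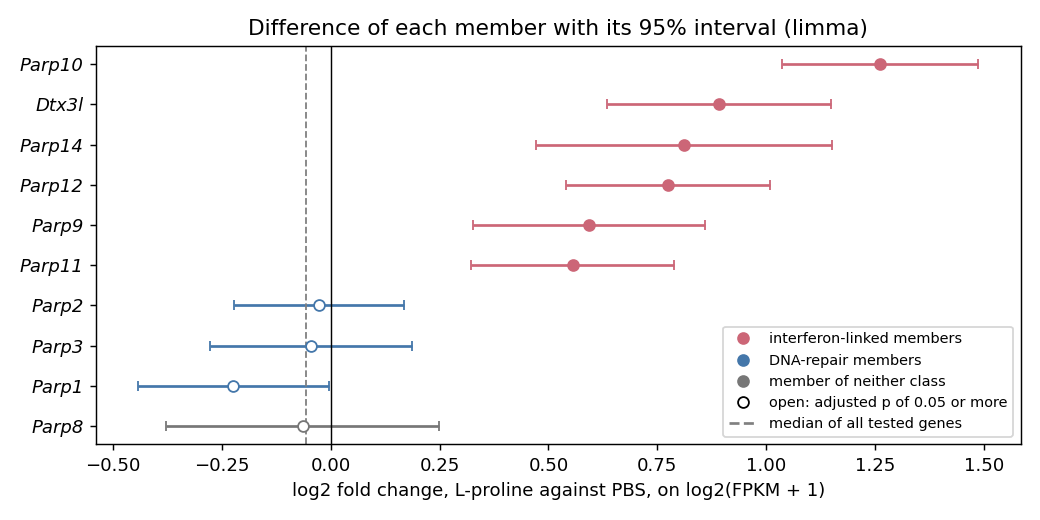
Log2 fold change of L-proline against PBS on log2(FPKM + 1) for each gene, with its 95% interval from limma. Filled points passed the adjusted p threshold of 0.05. The 6 interferon-linked genes lie from 0.56 to 1.26 and the intervals of Parp2, Parp3 and Parp8 span 0.

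The repair genes behaved otherwise. Parp1, the main sensor of DNA breaks and the source of most cellular poly(ADP-ribose), was the highest of the 10 genes in PBS at 22.8, 25.2 and 23.4 FPKM in libraries 1, 2 and 3. With L-proline it was 17.9, 22.6 and 20.5 in libraries 1, 2 and 3. All 3 L-proline values lay below all PBS values, as they did for 24.0% of all tested genes. On the log2 scale the difference was -0.22 ± 0.09 with a 95% interval of -0.44 to -0.0045, an unadjusted p = 0.0464 and an adjusted p = 0.136 (limma), so the difference did not pass. With the replicate number as a block the adjusted p was 0.0652, the lowest over 14 alternatives, and the highest was 0.289.

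Parp2, which shares Parp1's response to DNA breaks, was 7.98, 7.67 and 8.15 FPKM in PBS 1, 2 and 3 and 7.89, 8.37 and 7.11 in L-proline 1, 2 and 3. Its groups overlapped, and the log2 difference of -0.03 ± 0.08 (limma, adjusted p = 0.850) had a 95% interval of -0.22 to 0.17. Parp3, a mono-ADP-ribosyltransferase of double-strand break repair, was 12.6, 14.2 and 14.4 FPKM in PBS 1, 2 and 3 and 12.1, 15.1 and 12.8 in L-proline 1, 2 and 3. It also overlapped, at -0.05 ± 0.10 (limma, adjusted p = 0.778) with an interval of -0.28 to 0.19. Parp8, of neither class, was 4.27, 3.08 and 4.28 FPKM in PBS 1, 2 and 3 and 4.28, 3.56 and 3.13 in L-proline 1, 2 and 3, with a log2 difference of -0.06 ± 0.14 (limma, adjusted p = 0.768) and an interval of -0.38 to 0.25. The sign of these small differences turned with scaling: quantile normalization gave 0.06 for Parp2 and 0.03 for Parp8, and median-of-ratios scaling gave 0.03 for Parp2 and 0.01 for Parp3. On log2(FPKM + 1) none of these intervals reaches the 0.56 of Parp11 or the 0.59 of Parp9.

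The contrast between the classes can be read inside each library as well, where scaling between libraries cancels. Such ratios reuse the genes and libraries of the fit above, so they restate it and are no separate evidence. The 6 interferon-linked genes summed to 49.6, 56.7 and 57.9 FPKM in PBS 1, 2 and 3, and to 111, 109.9 and 110.1 in L-proline 1, 2 and 3. The 3 repair genes summed to 43.5, 47.0 and 46.0 FPKM in PBS and to 37.9, 46.1 and 40.4 in L-proline, in the same library order. The ratio of these sums was thus 1.14, 1.20 and 1.26 in PBS and 2.93, 2.39 and 2.73 in L-proline. Each of the 18 pairs of an interferon-linked and a repair gene was also compared as a log2 ratio of FPKM within the library. All 18 pairs had higher ratios in every L-proline library than in any PBS library. The difference ran from 0.68 for Parp9 over Parp2 to 1.54 for Parp10 over Parp1, with a median of 1.01. A two-sided exact permutation test gave p = 0.1 for each pair and 0.1 after adjustment over the 18 pairs, the smallest value that 3 libraries against 3 allow, so no pair can pass 0.05 in this design. Pairs that share a gene are not independent. Parp12 crossed Parp1: its log2 ratio to Parp1 was -0.88 ± 0.09 in PBS and 0.18 ± 0.08 in L-proline (SD, n = 3 each).

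**Figure D3:**
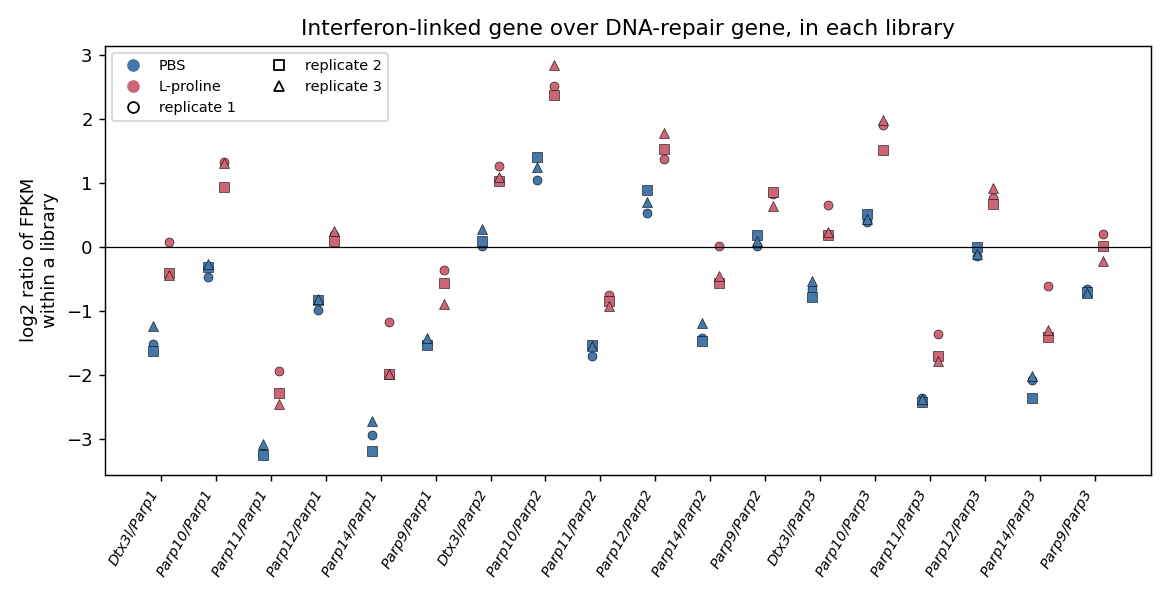
Log2 ratio of an interferon-linked gene over a repair gene within each library, for 18 pairs grouped by the repair gene, with PBS in blue, L-proline in red and 1 symbol per replicate number. In each pair all L-proline points lie above all PBS points, by a mean of 0.68 to 1.54.

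The order of levels in the set changed accordingly. In PBS it ran Parp1, Parp10, Parp3, Parp12, Dtx3l, Parp9, Parp2, Parp8, Parp14 and Parp11 from the highest to the lowest mean. The values of Parp3 and Parp12, of Dtx3l, Parp9 and Parp2 in turn, and of Parp8, Parp14 and Parp11 in turn, overlapped with the next in that order. In L-proline the order was Parp10, Parp12, Parp1, Dtx3l, Parp9, Parp3, Parp2, Parp14, Parp11 and Parp8. There Parp10 stood clear of Parp12, while the values from Parp12 through Parp3 each overlapped with the next, as did Parp2 with Parp14 and Parp11 with Parp8. FPKM is per length, so these levels can be set side by side as far as the authors' gene lengths hold.

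Among the other members of the family, 1 of 7 rose and 0 fell, where 7.50% of all tested genes rose and 12.1% fell. Zc3hav1 (the zinc finger antiviral protein, also called Parp13), which binds CpG-rich RNA and lacks catalytic activity, went from 15.1 ± 0.782 to 23.7 ± 3.48 FPKM, a log2 difference of 0.61 ± 0.11 (limma, adjusted p = 0.00707). Parp6 was 3.21 and 4.02 FPKM in PBS and L-proline (limma, adjusted p = 0.0726), Parp4, the vault particle member, 7.82 and 6.59 (0.0937) and Parp16, of the endoplasmic reticulum, 3.81 and 3.07 (0.0959). Parp6 passed with median-of-ratios scaling (limma, adjusted p = 0.0480), quantile normalization (0.0280) and voom (0.0495). The median log2 fold change of the 7 genes was -0.24. The Parp4 window, unlike those of Dtx3l and Parp12, held 2 ISRE cores, while Parp4 did not pass the test.

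Of 14 tested genes, Hpf1 and those whose proteins remove or read ADP-ribose, 1 rose and 1 fell. These counts are near the 7.50% higher and 12.1% lower among all tested genes. Adprs, the hydrolase that takes ADP-ribose off serine, went from 10.7 ± 0.517 to 14.6 ± 1.32 FPKM (log2 fold change 0.41 ± 0.09; limma, adjusted p = 0.0152), a call lost without PBS 1 (adjusted p = 0.0714) or without PBS 3 (0.0619). Enpp1, an ectoenzyme that also cleaves ADP-ribose linkages, fell from 28.5 ± 1.95 to 13.0 ± 1.63 FPKM (-1.08 ± 0.10; limma, adjusted p = 0.000542). Hpf1, the cofactor that directs Parp1 and Parp2 to serine, was 10.5 and 8.57 FPKM (adjusted p = 0.1, and 0.0325 without L-proline 1), and the repair factor Aplf was 3.86 and 3.21 (0.128). Their list had a median log2 fold change of -0.11.

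Partners of the repair class in single-strand break and end-joining repair included 23 tested genes, of which 0 rose and 3 fell, against 12.1% called lower among all tested genes. Among these 3, Lig1, a DNA ligase, went from 20.2 ± 1.36 to 14.1 ± 1.91 FPKM (-0.50 ± 0.10; limma, adjusted p = 0.0146, and 0.0607 without PBS 3). The glycosylase gene Neil1 went from 2.64 ± 0.213 to 1.54 ± 0.318 (-0.53 ± 0.12; limma, adjusted p = 0.0171, 0.0819 without PBS 3 and 0.0632 with quantile normalization). Polymerase beta (Polb) was 12.2 and 14.8 FPKM (limma, adjusted p = 0.0501) and passed in 7 of 14 alternatives. The median log2 fold change of the 23 genes was -0.14, beside -0.05 for the 3 repair-class Parp genes.

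In the Deltex family, to which Dtx3l belongs, 1 of the 3 other tested genes rose, against 7.50% of all tested genes. Dtx2 went from 5.53 ± 0.368 to 6.95 ± 0.231 FPKM (0.28 ± 0.08; limma, adjusted p = 0.0451), a call lost in 8 of 14 alternatives: with no filter, with the replicate block and in each of the 6 fits that left out a library, at an adjusted p of up to 0.180. Dtx3 was 20.6 and 18.0 FPKM (limma, adjusted p = 0.189) and Dtx4 was 9.08 and 7.90 (0.190). Of 12 tested genes of NAD+ supply and use, which provide or compete for the substrate of these enzymes, 0 rose and 1 fell, near the 7.50% higher and 12.1% lower overall. That gene was NAD+ synthetase, Nadsyn1, which went from 3.31 ± 0.156 to 1.57 ± 0.179 FPKM (-0.75 ± 0.09; limma, adjusted p = 0.00161). Nmnat1 was 2.13 and 2.59 FPKM, Sirt3 6.53 and 7.62 and the mitochondrial NAD+ carrier Slc25a51 16.9 and 18.8, none of which passed.

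All 5 STAT and IRF genes tested as the known input of the interferon-linked class rose, against 7.50% of all tested genes. Among them Irf7 went from 14.1 to 41.3 FPKM, Irf9 from 19.1 to 42.1 and Stat2 from 23.8 to 40.9, and each of these 3 passed in 14 of 14 alternatives. Of 8 macrophage markers 3 were listed and 1 of 2 tested rose, with the listed 3 summing to 4.56 to 5.59 FPKM in PBS and 6.52 to 7.72 in L-proline, while Adgre1, Ptprc, Fcgr1, C1qa and C1qb were not among the genes analysed here. The one that rose, Cd68, went from 3.17 ± 0.536 to 5.19 ± 0.297 (limma, adjusted p = 0.0101), while Lyz2 was 1.69 and 1.88 (0.723) and Csf1r lay under the filter. T, NK and B cell markers summed to at most 0.152 FPKM in any library, with 2 of 8 listed. Of 6 tested fibroblast markers 3 collagen genes rose, Pdgfra fell from 7.84 to 5.97 FPKM (limma, adjusted p = 0.0215), and Dcn (0.0589) and Postn (0.231) did not pass. The fibroblast sum given above is carried by the collagens, with Col3a1 at 1226 and 1824 FPKM. The part of these cells in the result was not tested.

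**Figure D4:**
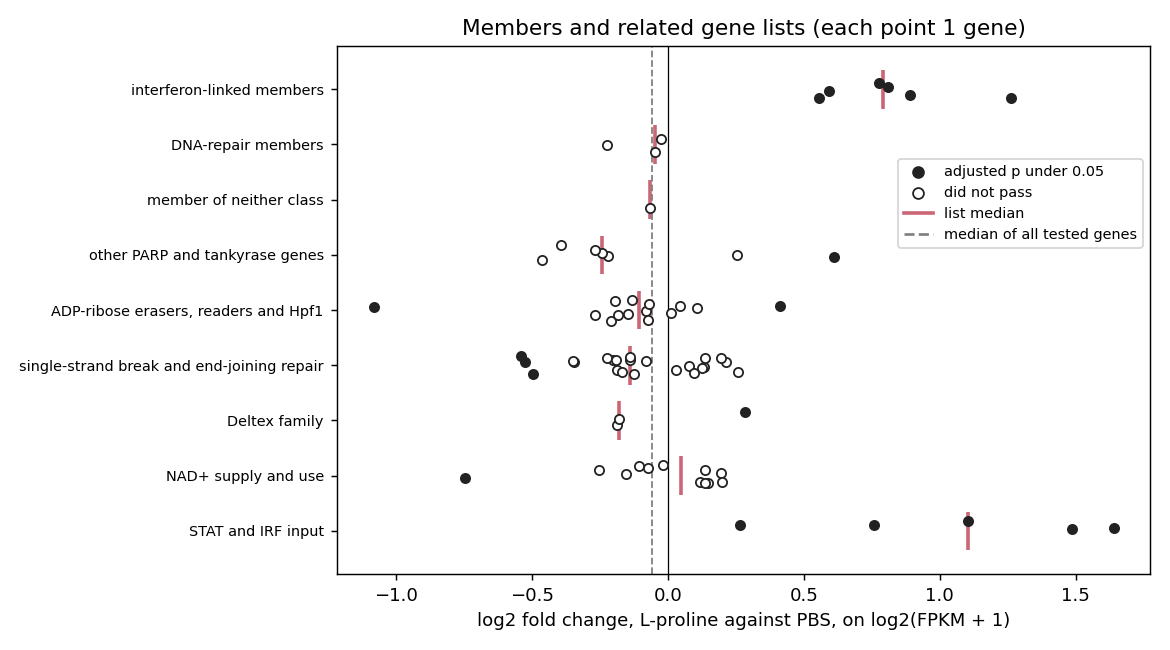
Log2 fold change of L-proline against PBS on log2(FPKM + 1) for every tested gene of the set and of 6 related lists, 1 point per gene, filled where the adjusted p was under 0.05, with the list median in red and the median of all tested genes dashed. The interferon-linked class and the STAT and IRF genes lie wholly to the right of 0, and the repair lists lie around or below it.

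The genes most like Parp9 and Parp1 in pattern were sought by Pearson's r of log2(FPKM + 1) over the 6 libraries among 10499 other genes. For Parp9 the first 5 outside the set included Tor1aip1 (r = 0.999), Slc30a1, Pdpr and Uchl3 (r = 0.991), and Dtx3l ranked 90th of all genes. For Parp1 they were Aldh16a1 (r = 0.999), Spc24, Nubp1, Egln1 and Ncapd2 (r = 0.995). All of these values rest on only 6 points. For Parp9 the group difference weighs heavily in them. Tor1aip1 (limma, adjusted p = 0.0132), Slc30a1 (0.0182) and Pdpr (0.0399) passed the test, and Uchl3 (0.0545) did not. Neither Parp1 nor its 5 genes passed the test (limma, adjusted p = 0.136 for Parp1, and from 0.0838 for Nubp1 to 0.173 for Aldh16a1). Spread between libraries of a group therefore also enters the Parp1 values.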

How the data were processed

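The authors deposited 1 table of FPKM values with a column per library, per the file headers. The build named was GRCm39 and the tools included HTSeq 0.13.5 and HISAT2, with no step attached to either, per the submitters' processing notes. The sources used here do not give the rule by which the 14408 genes were listed. Libraries were made from polyadenylated RNA with a NEBNext Ultra kit, per the labels' protocols.

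Group and replicate were read from the sample titles. The main test was limma 3.58.1 in R 4.3.3 on log2(FPKM + 1), with empirical Bayes and a mean-variance trend, two-sided, over genes with a mean of at least 1 FPKM, adjusted by Benjamini-Hochberg. Library totals were solved from 13 mitochondrially encoded genes, and each gene's length was chosen so that its 6 values came out within 0.01 of a whole fragment. This held for 14327 of 14408 genes. Totals of 34990473 to 37498030 fragments make 1 fragment on a gene of 1 kb worth 0.0267 to 0.0286 FPKM. The steps were tested on simulated data. RefSeq windows came with GRCm38.p6 and exon overlaps from GENCODE M21, used for names, sequences and overlaps only.

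The genes named are the 10 of the set and, from each of 6 related lists, the 4 tested genes with the smallest unadjusted p, and the 5 genes most like Parp9 and Parp1 in pattern, apart from marker genes and genes said to be chosen later. Some genes that this rule names are not reported here. The members and lists were chosen with earlier results of these data known. Alternatives changed the pseudocount, filter, scaling, variance model, replicate block and libraries. Voom on recovered fragments was added after seeing the data.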

Additional observations from a re-analysis of the deposited data

How the results depend on the processing

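Each of the 6 interferon-linked genes passed, and kept its direction, in all 14 alternatives, with adjusted p between 0.000104 (Parp10) and 0.0496 (Parp9, without PBS 1). None of the 3 repair genes passed in any alternative. The sign of the log2 fold change turned for Parp2 with median-of-ratios scaling (0.0294) and quantile normalization (0.0636), for Parp3 with median-of-ratios scaling (0.0129) and for Parp8 with quantile normalization (0.0321). When libraries were left out it ran from -0.0734 (without L-proline 2) to 0.0310 (without L-proline 3) for Parp2, from -0.133 (without L-proline 2) to 0.0183 (without L-proline 1) for Parp3 and from -0.187 (without PBS 2) to 0.0192 (without L-proline 3) for Parp8. The count over all genes, 2056, ran from 874 (without PBS replicate 3) to 2770 (without L-proline replicate 1) when libraries were left out, and was 976 without PBS replicate 1. Each of these fits has fewer libraries, and the cause of the range was not tested. Of the 2056 calls 788 were higher and 1268 lower, against 993 and 919 with median-of-ratios scaling and 1076 and 1019 with quantile normalization.

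The titles number the replicates 1 to 3 in both groups. Same-numbered libraries deviated together for numbers 1 and 2 (r = 0.65 and 0.42 across genes) but not for 3 (r = -0.35). Unlike-numbered libraries ran from r = -0.75 (PBS 2 with L-proline 1) to 0.53 (PBS 2 with L-proline 3). Deviations from a mean of 3 libraries constrain each other, so these values cannot decide whether the numbers pair the libraries. The labels do not say that a number marks a shared animal, litter or day, so no pairing was taken. With the replicate block 2383 genes passed, with 6 of the interferon-linked and 0 of the repair genes among them. Depth was not limiting for the set, whose genes had at least 526 fragments in each library.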
